A study of Zea mays with 18 samples.

Results

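Ears at silking were compared with ear inflorescences taken earlier from plants of event 1, a maize line that expressed ATHB17Δ113. Each tissue was represented by 3 biological replicates. Of the 76612 transcript identifiers in the table, the 39942 with a mean normalized count of at least 10 over these 6 samples were described. The identifier just inside this limit was AC202399.3, with a mean of 10, and the one just outside was GRMZM2G100976, with 9.99. The same rule applied to the control samples would have taken 39622 identifiers, and applied to event 2 it would have taken 39506.

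The plants were the elite hybrid NN6306, grown in an Illinois field in 2012 under standard agronomic practice, and insect-protection or glyphosate traits, where present, were the same in transgenic and control plants. Event 1 carried the full-length Arabidopsis ATHB17 coding sequence behind the rice actin promoter, leader and intron, together with a glyphosate tolerance marker. Splicing in maize left a protein without the first residues and the repression domain of the full-length factor, an HD-Zip class II transcription factor, and this truncated protein can interfere with related maize repressors. Event 2 was an independent insertion of the same construct, and control plants lacked the transgene. Ear inflorescence was collected at growth stage V16 and ear at growth stage R1, when silks emerge. An event is a single insertion in a single line, the promoter is active in many tissues, and the transgene was present in both tissues compared, so the comparison is one of stages within 1 transgenic line. Whether a replicate was 1 plant or a pool is not given in the sources used here. ATHB17 itself is not analysed here.

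A young ear is built from meristems. The inflorescence meristem at its tip gives rise to spikelet-pair, spikelet and floral meristems on its flanks, and auxin made and transported locally positions each of them. By silking the florets hold mature pistils, cell division has largely given way to cell enlargement and wall thickening in silk, cob and glume, and sugars move into the ear from the leaves. Growth-regulating factors, cyclins and replication proteins are known from dividing tissue, and expansins, aquaporins and lignin enzymes from tissue that enlarges and then stiffens.

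Between 27293941 and 38329022 reads were counted on transcripts in the 6 samples, where a read matching several transcripts was counted on each, and the 10 highest identifiers took 3.85% to 8.02% of a sample's reads. One library stood apart. Ear inflorescence replicate 1 differed from replicates 2 and 3 with an SD of 0.977 and 0.776 on the log2 scale over the 39942 transcripts, whereas replicates 2 and 3 differed from each other with an SD of 0.49 and the ear replicates among themselves with SDs of 0.47 to 0.482. Within the control and event 2 groups the same SD lay between 0.387 and 0.812. The reads of replicate 1 lay within the range of the others (35270126), but its normalized total was 24443888 against 36325155 and 32991465 in replicates 2 and 3, and it had more identifiers above 0 (62485 against 54017 to 57768 in the other 5 samples). On the first principal component of the 6 samples, which took 84.1% of the variance, the ear samples lay between 133.1 and 147.0, ear inflorescence replicates 2 and 3 at -81.0 and -127.8, and replicate 1 at -215.5, the farthest from ear. Results are therefore given with this library, and the calls of each functional list without it are given with its description below.

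Of the 39942 transcripts, 10706 (26.8%) differed between the tissues at a raw p of at most 0.0001 in limma, the threshold used throughout and written below as called; 6137 were higher in ear and 4569 lower. Over all 76612 identifiers 14.8% were called, 8.46% higher and 6.32% lower. The largest Benjamini-Hochberg adjusted p among the called transcripts was 0.000676. In all 10706 the 3 ear values lay entirely on 1 side of the 3 ear inflorescence values. This was so in 26230 (65.7%) of the members, 33.7% with ear higher and 31.9% with ear lower, and in 42.5% of all identifiers, 20.5% with ear higher and 22% with ear lower. Differences are given below on the log2(normalized count + 1) scale, as ear minus ear inflorescence, with their SE and adjusted p. Because whole tissues were ground up, fewer cells of a type and less RNA per cell cannot be told apart in any of these values. For a named transcript the normalized counts of replicates 1, 2 and 3 are given in that order, ear inflorescence before ear.

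In the limma fit to all 18 samples, more of the large differences were higher in ear than lower. Over calls of any size the share higher in ear was 57.3% in this fit. It was 51.7% with quantile normalization, 52.5% with DESeq2 and 52.8% with edgeR. The numbers by size below are from the limma fit only. Among called transcripts 2613 were higher in ear by more than 2 on the log2 scale and 1474 were lower by as much, and past a difference of 4 the numbers were 564 and 45. The median difference was 1.795 for the called higher transcripts and -1.68 for the called lower ones, against 0.04 over all members, whose median SE was 0.26. At a mean of 10 to 100 normalized counts 17.6% of the members were called, and at 100 to 1000 33.9%. Among the 563 members with a mean of at least 10000, 158 were called higher and 4 lower.

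The number called depended on the samples more than its direction did. Without ear inflorescence replicate 1, 7130 transcripts were called (4743 higher and 2387 lower), of which 6683 were also called with it, and no called transcript changed sign. Leaving out ear inflorescence replicate 3 gave 7086, and leaving out ear replicates 1, 2 and 3 gave 7055, 6690 and 6804. Only ear inflorescence replicate 2 could be left out with a number close to the full one, 11069.

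**Figure D1:**
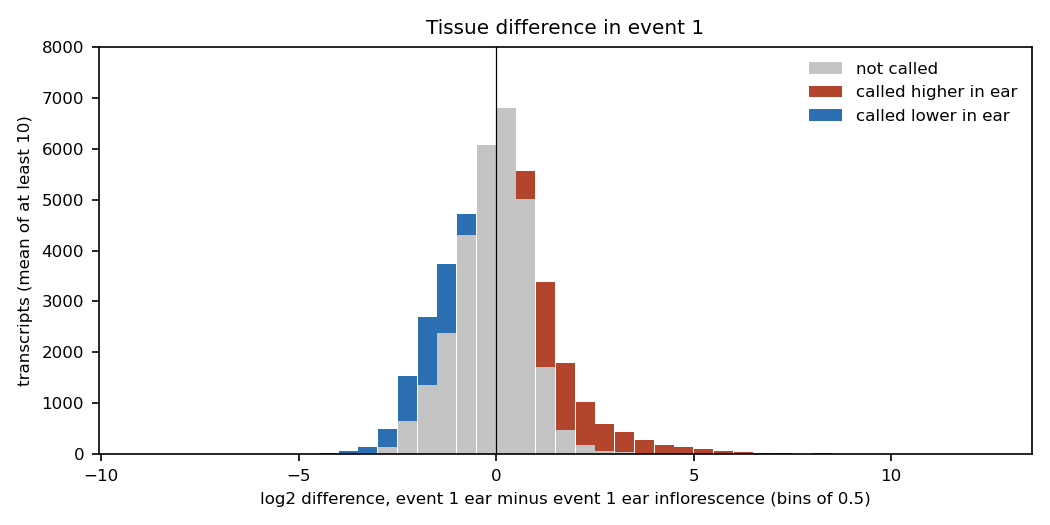
Number of event 1 transcripts (vertical axis) by their difference between ear and ear inflorescence on the log2(normalized count + 1) scale (horizontal axis), for all 39942 members and for those called higher or lower in ear. The 6137 called higher reach beyond 6 in 105 cases, whereas only 3 of the 4569 called lower pass -6.

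Several of the transcripts with the smallest p were nearly absent from ear inflorescence. GRMZM2G036203 (csu5a) had 1.39, 3.79 and 0 normalized counts in ear inflorescence replicates 1, 2 and 3 and 2724, 3803 and 2750.4 in the ear replicates (log2 difference 10.40 ± 0.44, adjusted p = 4.9e-11). The identifiers GRMZM2G031102 and GRMZM2G099867 had the same reads in all 18 samples and stand for 1 measurement, 13.9, 20.9 and 25.4 in ear inflorescence and 1658, 2113 and 1566 in ear, 88.8-fold higher. GRMZM2G048161 rose from 2.08, 3.79 and 4.83 to 581, 784 and 451, 170-fold higher in ear. In all of these the lowest ear value was far above the highest ear inflorescence value. GRMZM2G076417, at 40.9, 48.3 and 42.3 in ear inflorescence and 773, 919 and 669 in ear, was 17.9-fold higher.

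Among the transcripts lower in ear, the smallest p belonged to ARF23 (GRMZM2G441325), an auxin response factor, which binds auxin-regulated promoters. It fell from 2230.2, 2104 and 2368 in ear inflorescence to 408, 366 and 372 in ear (log2 difference -2.54 ± 0.14, adjusted p = 4.1e-10). A member of the YABBY family of lateral organ regulators, yab14 (GRMZM2G005353), had 1343, 1516 and 1310.3 in ear inflorescence and 80.8, 56.6 and 71.7 in ear (log2 difference -4.31 ± 0.26, adjusted p = 1.0e-09). EREB161 (GRMZM2G021573), of the ethylene-response-element-binding family, went from 498, 483 and 664 to 26.1, 20.1 and 33.7, 20.6-fold lower in ear. In each of these the 3 ear inflorescence libraries were close to each other, replicate 1 included. The cytochrome P450 cyp78 (GRMZM2G167986) had 1381, 1370.4 and 1515 and 27.3, 34 and 38, 43-fold lower in ear, and GRMZM2G061287 had 1251, 1182 and 1233 and 319.7, 297 and 316 (log2 difference -1.97 ± 0.12, adjusted p = 1.0e-09).

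Some transcripts were at the counting floor, taken as at most 3 reads in each of the 3 libraries, in 1 tissue only. There were 313 such members in ear inflorescence, 288 of them called, and 167 in ear, 94 of them called. Such members reached the mean limit through the other tissue. The direction of their differences was therefore set by the choice of members, and these counts only describe them. The best-covered of those near absent from ear inflorescence was GRMZM2G089493, with 1.39, 1.90 and 2.42 normalized counts there and 1546, 2508 and 2067 in ear. GRMZM2G009465 had 2 reads in ear inflorescence over the 3 libraries and 1732, 2358 and 1837 normalized counts in ear, a ratio of 3280 by depth-scaled reads with a 95% counting interval of 909 to 27100. GRMZM2G041866 had 1.39, 0 and 0 in ear inflorescence and 1089.9, 1789 and 1248 in ear, a ratio of 2290 (632 to 18900). These 3 were abundant in every ear sample and near the floor in every ear inflorescence sample. GRMZM5G851500 had no reads in ear and 541, 105 and 407 normalized counts in ear inflorescence, at least 83.3-fold higher there against a floor of 3 reads per library. GRMZM2G091652 had 84.5, 51.2 and 61.6 in ear inflorescence and 0, 2.52 and 4.22 in ear. Counting intervals and floors cover counting error only.

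Over the functional lists that follow, calls can be read beside the 15.4% of all 39942 members that were called higher, the 11.4% called lower and the members' median difference of 0.04. Genes that place axillary meristems were among the largest falls. Of the 43 auxin transcripts measured, 16 were called lower in ear and 9 higher, with a median difference of -0.70. The gene spi1 (GRMZM2G025222) encodes a YUCCA-type flavin monooxygenase of auxin synthesis that maize inflorescences need to make branches and spikelets. It had 36.7, 59.7 and 77.4 normalized counts in ear inflorescence and 1.19, 0 and 0 in ear, where a single read was found in the 3 libraries, a ratio of 127 (95% counting interval 22.5 to 5050). BA1 (GRMZM2G397518), the barren stalk1 bHLH factor that marks the sites of axillary meristems, went from 131, 297 and 331 to 4.75, 2.52 and 9.84 (log2 difference -5.29 ± 0.45, adjusted p = 6.0e-08). In both genes the lowest ear inflorescence value was that of replicate 1, and it was still many times the highest ear value. The spi1 difference was called (adjusted p = 1.3e-07).

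The auxin response factors did not move as 1 group. ARF13 (GRMZM2G378580), the called lower transcript with the highest mean, had 59917, 50917 and 54211 in ear inflorescence and 20859, 20074 and 19391 in ear (log2 difference -1.45 ± 0.23, adjusted p = 7.5e-05). ARF21 (GRMZM2G390641) was higher in ear, with 80.4, 101 and 82.2 and 353, 496 and 403 (log2 difference 2.23 ± 0.19, adjusted p = 6.3e-08). PIN5c (GRMZM2G040911), a member of the PIN auxin carriers, rose from 11.8, 32.2 and 24.2 to 144, 162 and 129 (log2 difference 2.72 ± 0.39, adjusted p = 2.6e-05), a call that was lost without ear inflorescence replicate 1. The tissues did not overlap in any of the 3. Without ear inflorescence replicate 1, 6 auxin transcripts were called higher and 17 lower.

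Growth-regulating factors, which together with the coactivator AN3 keep cells of young organs dividing, were mostly lower in ear. Of the 18 measured, 14 were called lower and none higher, with a median difference of -1.98. The 2 identifiers named GRF9 fell most. GRMZM2G124566 had 201, 389.5 and 344 in ear inflorescence and 35.7, 20.1 and 36.5 in ear (log2 difference -3.29 ± 0.33, adjusted p = 3.5e-07), and GRMZM5G893117 had 146, 194 and 228 and 20.2, 42.8 and 16.9 (log2 difference -2.88 ± 0.30, adjusted p = 7.6e-07). AN3 (GRMZM2G180246), named after its Arabidopsis relative, fell from 4290.0, 6765 and 8082 to 1217, 1322 and 1411 (log2 difference -2.23 ± 0.28, adjusted p = 5.0e-06). Every one of the 3 was several-fold lower in each ear sample than in any ear inflorescence sample. The 4 not called had differences between -0.90 and 0.41.

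**Figure D2:**
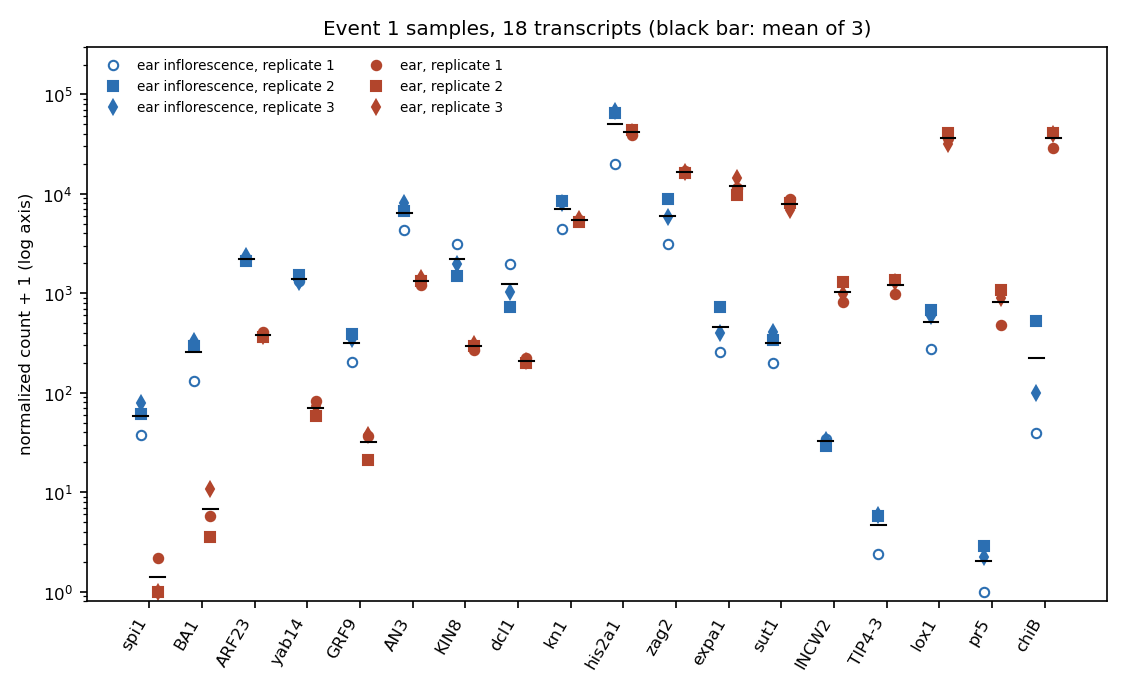
Normalized count + 1 (vertical log axis) in each event 1 sample for 18 transcripts (GRF9 is GRMZM2G124566), with blue symbols for ear inflorescence, red symbols for ear, a different symbol for each replicate and a black bar at the mean of 3. The open circle is ear inflorescence replicate 1, which lies below the other ear inflorescence samples for spi1, BA1, kn1, his2a1 and most transcripts that were higher in ear, and above them for KIN8 and dcl1.

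Transcripts for mitosis changed in the same direction as the growth-regulating factors. Of 27 cyclins, kinesins and other mitotic transcripts, 19 were called lower in ear and 1 higher (median difference -1.33). The kinesin KIN8 (GRMZM2G132371) had 3144, 1502 and 1975 in ear inflorescence and 269.8, 296 and 308 in ear (log2 difference -2.85 ± 0.22, adjusted p = 2.1e-08), and KIN13 (GRMZM2G034828) 5512, 2586 and 3855 and 678, 691 and 762 (log2 difference -2.42 ± 0.20, adjusted p = 3.1e-08). Kinesins are motors of the spindle and phragmoplast. The cyclin transcript cyclin8 (GRMZM2G138886) was steady within tissues, at 1078, 1089.9 and 1160.4 and then 269.8, 269 and 279.7 (log2 difference -2.02 ± 0.13, adjusted p = 2.3e-09). cyclin4 (GRMZM2G310115), the list's called member with the highest mean, went from 8034, 11425 and 10009.6 to 4016, 4048 and 3739.8 (log2 difference -1.31 ± 0.17, adjusted p = 6.8e-06). The exception was cycD2 (GRMZM2G075117), a D-type cyclin, which was higher in ear with 888, 1658 and 1278 in ear inflorescence and 3464, 3798 and 4043 in ear (log2 difference 1.61 ± 0.18, adjusted p = 1.6e-06).

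Replication licensing factors were among the transcripts that fell. Of 14 replication transcripts 5 were called lower and none higher, with a median difference of -0.58. MCM7 (GRMZM2G065205) had 1074, 693 and 939 in ear inflorescence and 271, 276 and 219 in ear (log2 difference -1.80 ± 0.17, adjusted p = 2.5e-07). MCM6 (GRMZM2G021069), like MCM7 a subunit of the replicative helicase, had 1304, 843 and 1200.3 and 379, 375 and 344 (log2 difference -1.58 ± 0.16, adjusted p = 4.5e-07). The origin recognition subunit orc1 (GRMZM2G455243) fell from 798, 389.5 and 521 to 141, 181 and 142 (log2 difference -1.82 ± 0.21, adjusted p = 2.0e-06). In all 3, ear inflorescence replicate 1 was the highest of its group. The other called members, named here after their values were seen, were orc4 (-1.40) and the ribonucleotide reductase subunit RNRL2 (-1.11), and the sliding clamps pcna1 and pcna2 had differences of -0.13 and -0.36 and were not called.

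Histones were the opposite case: none of the 11 was called in either direction, and the median difference was 0.12. his2a1 (GRMZM2G305046) had 19784, 64418 and 68190.2 in ear inflorescence and 39044, 43851 and 42011 in ear, and his1a (GRMZM2G401308) 43159.6, 109239.8 and 104603 and 102101, 102408 and 112961. Replicate 1 was below replicates 2 and 3 in every one of the 11, with a median departure of -1.39. Without replicate 1 no histone was called either, and the median difference was -0.34. Control and event 2 had list medians of 0.01 and -0.60.

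Genes that write chromatin marks and small RNA factors were lower in ear. Of 19 DNA methylation, small RNA and Polycomb transcripts 13 were called lower and none higher, with a median difference of -1.54. argonaute6 (GRMZM2G347402), of the family that binds small RNAs, had 429.7, 194 and 309 in ear inflorescence and 53.5, 55.4 and 40.8 in ear (log2 difference -2.56 ± 0.27, adjusted p = 8.9e-07). The Dicer-like gene dcl1 (GRMZM2G040762), which processes microRNA precursors, had 1949.5, 727 and 1041 and 221, 198 and 205 (log2 difference -2.45 ± 0.32, adjusted p = 7.6e-06), and the DNA methyltransferase dmt101 (GRMZM2G334041) 8529, 4159 and 5560.2 and 1243, 1445 and 1251 (log2 difference -2.15 ± 0.23, adjusted p = 7.2e-07). Replicate 1 was the highest ear inflorescence sample in each of them, and over the list it departed from the other replicates by a median of 0.79. Without it 10 were called lower and the median difference was -1.26.

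Among 8 meiotic transcripts 2 were called lower. ZYP1 (GRMZM2G143590), a protein of the synaptonemal complex, had 683, 253 and 318 in ear inflorescence and 30.9, 27.7 and 47.8 in ear (log2 difference -3.43 ± 0.47, adjusted p = 1.5e-05), and the call was lost without ear inflorescence replicate 1, which left 1 of the 8. sgo1 (GRMZM2G074082), the shugoshin that protects centromeric cohesion, went from 1027, 619 and 728 to 380.4, 332 and 326 (log2 difference -1.16 ± 0.18, adjusted p = 4.0e-05). The REC8-type cohesin afd1 (GRMZM2G059037) was not called at 127, 58.8 and 60.4 and 14.3, 15.1 and 11.2 (log2 difference -2.43 ± 0.53, adjusted p = 0.0012). The recombinase Dmc1 (GRMZM2G109618) was not called either, with 145, 175 and 138 in ear inflorescence and 298, 183 and 197 in ear. The recombinase genes rad51a (GRMZM2G121543) and rad51b (GRMZM2G084762) had differences of -0.52 and -0.61 and were not called.

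Few of the homeobox genes that act in meristems and organ primordia were called. Of 20 KNOX and WUSCHEL-type homeobox transcripts 2 were called lower and none higher (median -0.37). These were wox3A (GRMZM2G122537), with 156, 300.4 and 234 in ear inflorescence and 27.3, 17.6 and 22.5 in ear (log2 difference -3.27 ± 0.42, adjusted p = 7.9e-06), and ns1 (GRMZM2G069028), with 77.6, 221 and 115 and 20.2, 21.4 and 32.3 (log2 difference -2.33 ± 0.45, adjusted p = 4.0e-04). Narrow sheath1, the ns1 product, acts at the margins of young leaves. The ns1 call was lost on leaving out any 1 of the 6 samples. The list had 1 call lower without ear inflorescence replicate 2 or 3 or ear replicate 1 or 2, and without ear inflorescence replicate 2 another member was called higher. knotted1 (kn1, GRMZM2G017087), the meristem gene that gives the family its name, had 4436, 8410.1 and 8084 and 5517, 5195 and 5602 (log2 difference -0.30 ± 0.25, adjusted p = 0.37) and was not called. Replicate 1 again lay below both other ear inflorescence samples, and without it the kn1 difference was -0.60, still not called. Of the 4 CLAVATA-type genes, whose products limit meristem size, none was called and the differences lay between -0.64 and -0.05. The best covered of them, fea3 (GRMZM2G166524), had 3200.5, 5817 and 4843 in ear inflorescence and 3505, 4434 and 3993 in ear.

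SBP-box factors, known for bounding meristems and for tassel and ear branching, included transcripts that fell by more than 2 on the log2 scale. Of 28 ramosa, spikelet and SBP-box transcripts 6 were called lower and 1 higher. sbp21 (GRMZM2G148467) had 255, 283 and 344 in ear inflorescence and 11.9, 23.9 and 16.9 in ear (log2 difference -4.03 ± 0.41, adjusted p = 4.2e-07), and sbp29 (GRMZM2G067624) fell from 8076, 17142 and 14519 to 1407, 1810.4 and 1771 (log2 difference -2.93 ± 0.26, adjusted p = 1.1e-07). The unbranched2 gene ub2 (GRMZM2G160917) had 2037, 3147 and 3229.8 and 391, 491 and 586 (log2 difference -2.51 ± 0.27, adjusted p = 8.1e-07). Its relative ub3 (GRMZM2G460544) was at 702, 1364 and 1141 and 336, 447 and 571 and was not called (log2 difference -1.22 ± 0.26, adjusted p = 9.7e-04). sbp27 (GRMZM2G097275) went the other way, from 821, 1137 and 1195 to 1747, 1992 and 2009.8 (log2 difference 0.88 ± 0.15, adjusted p = 9.6e-05). Without ear inflorescence replicate 2 or 3 the number called lower was 3.

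Leucine-zipper homeobox genes of classes III and IV, relatives of the class II family to which ATHB17 belongs, were called lower in ear in 4 of 9 cases and called higher in none, with a median difference of -0.86. rld2 (GRMZM2G042250) had 9379.7, 6362 and 7891 in ear inflorescence and 1973, 2089 and 1876 in ear (log2 difference -1.98 ± 0.19, adjusted p = 2.8e-07), and rld1 (GRMZM2G109987) 15267, 10840.0 and 12740.2 and 4904, 4532 and 4656 (log2 difference -1.45 ± 0.18, adjusted p = 6.1e-06). These class III genes specify the upper side of lateral organs. The epidermal class IV gene ocl4 (GRMZM2G123140) fell from 7092, 6573 and 5478 to 2202, 2537 and 1843 (log2 difference -1.54 ± 0.20, adjusted p = 7.6e-06). Another member of that class, ocl1 (GRMZM2G026643), was not called, although every ear value was above every ear inflorescence value (1607, 1655 and 1500.0 and 2258, 2254 and 2179.8).

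Cytokinin receptors and an oxidase, which degrades the hormone, were among the transcripts lower in ear. Of 29 cytokinin transcripts 7 were called lower and 1 higher, with a median difference of -0.11. hk3 (GRMZM2G158252) had 471, 229 and 344 in ear inflorescence and 89.1, 79.3 and 59 in ear (log2 difference -2.14 ± 0.27, adjusted p = 4.8e-06), and the receptor HK1 (GRMZM2G151223) 1864, 1250.0 and 1411 and 769, 811 and 669 (log2 difference -0.99 ± 0.16, adjusted p = 1.0e-04), a call lost without ear replicate 3. The cytokinin oxidase CKX12 (GRMZM2G008792) fell from 105, 162 and 178 to 13.1, 2.52 and 0 (log2 difference -5.31 ± 0.68, adjusted p = 7.3e-06). CKX6 (GRMZM2G404443), another oxidase, was the one called higher, at 38.8, 53.1 and 41.1 and 132, 137 and 194 (log2 difference 1.77 ± 0.35, adjusted p = 5.6e-04), and that call was lost on leaving out any 1 of the 6 samples. Of 4 gibberellin genes only an1 (GRMZM2G081554), which acts at an early step of gibberellin synthesis, was called: it fell from 3298, 1477 and 2138 to 218, 253 and 385 (log2 difference -2.98 ± 0.31, adjusted p = 6.8e-07). The DELLA repressors D8 (GRMZM2G144744) and d9 (GRMZM2G024973) had differences of -0.75 and 0.17 and were not called.

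Floral MADS-box genes, which give florets and their organs their identity, were called in both directions, 8 higher and 3 lower of 31, with a median difference of 0.66. The B-sister gene zmm17 (GRMZM2G130382), known from ovules, rose from 11.1, 7.58 and 6.04 in ear inflorescence to 63, 70.5 and 59 in ear (log2 difference 2.85 ± 0.32, adjusted p = 1.3e-06). MADS35 (GRMZM2G359952) had 393, 497 and 354 and 2041, 1735 and 1878 (log2 difference 2.19 ± 0.24, adjusted p = 1.0e-06). zag2 (GRMZM2G160687), an AGAMOUS-type gene of carpel and ovule, had 3153, 8793 and 5837 and 16912, 16343 and 16559 (log2 difference 1.61 ± 0.28, adjusted p = 1.6e-04), a call lost without ear inflorescence replicate 3 or any 1 of the ear replicates. These 3 were higher in every ear sample than in any ear inflorescence sample. MADS34 (GRMZM2G137510) was nearly absent from ear, with 0, 0 and 1.41 normalized counts there, and uneven in ear inflorescence at 14.6, 250.2 and 422 (log2 difference -6.46 ± 1.13, adjusted p = 1.7e-04). MADS36 (GRMZM2G079727) fell from 904, 2295 and 2554 to 562, 361 and 408 (log2 difference -2.00 ± 0.38, adjusted p = 3.8e-04). The calls for MADS34 and MADS36 were lost without any 1 sample other than ear inflorescence replicate 1. Without ear inflorescence replicate 3 or any 1 ear replicate the list had 5 calls higher, and the calls lower numbered 1 without ear inflorescence replicate 2 or 3 or ear replicate 1 or 3 and 0 without ear replicate 2.

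YABBY genes split by member. Of the 8, yab14 and yabby15 were called lower and YAB3, YAB5 and YAB11 higher. yabby15 (GRMZM2G529859) had 1342, 1543 and 1189 in ear inflorescence and 546, 538 and 516 in ear (log2 difference -1.34 ± 0.16, adjusted p = 2.8e-06). YAB3 (GRMZM2G106204) rose from 204, 233 and 204 to 890.2, 852 and 795 (log2 difference 1.98 ± 0.22, adjusted p = 1.1e-06), YAB5 (GRMZM2G116646) from 693, 426 and 642 to 1625, 2024 and 1639 (log2 difference 1.61 ± 0.17, adjusted p = 1.0e-06), and YAB11 (GRMZM2G141955) from 347, 196 and 155 to 666, 870.0 and 793 (log2 difference 1.81 ± 0.25, adjusted p = 1.7e-05). In these 5 the tissues did not overlap, and each kept its call without ear inflorescence replicate 1. Fitted to the 6 event 1 samples alone, where fewer samples measure the spread, 1 YABBY gene was called higher and 2 lower. The other 3, YAB6, yab9 and yab10, had differences of -0.21, 0.09 and 0.43.

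**Figure D3:**
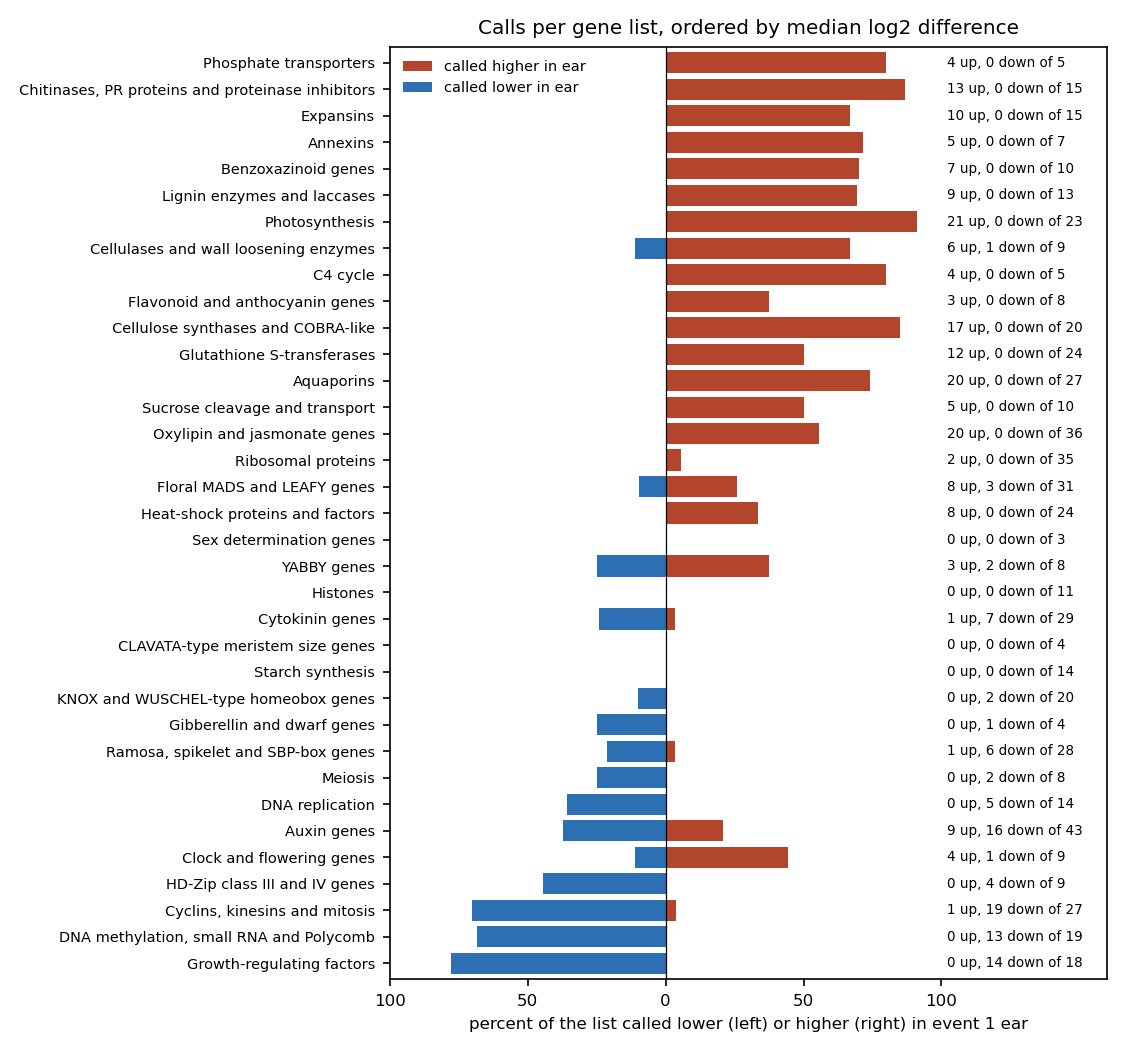
Percent of the measured transcripts of each functional list (rows) that were called higher in ear (right of 0) or lower in ear (left of 0) in event 1, with the numbers at the right margin. Growth-regulating factors (14 of 18 lower) and mitotic transcripts (19 of 27 lower) extend to the left, and photosynthesis (21 of 23 higher) and aquaporins (20 of 27 higher) to the right.

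Wall loosening and wall building transcripts were higher in ear. Of 15 expansins, proteins that let walls extend, 10 were called higher and none lower, with a median difference of 2.95. Of the 16 expansin identifiers matched, 4 had no reads in any ear inflorescence sample. Among these, EXPB11 was under the mean limit and the others reached it through ear alone. Their direction was set by the choice of members, and they are part of the median. expB6 (GRMZM2G176595) rose from 8.32, 10.4 and 12.1 in ear inflorescence to 571, 1080.2 and 864 in ear, 81.6-fold higher (log2 difference 6.18 ± 0.31, adjusted p = 2.2e-10). expa1 (GRMZM2G339122) had 257, 732 and 395 and 11421, 9804 and 14543 (log2 difference 4.80 ± 0.31, adjusted p = 2.7e-09), and expB8 (GRMZM2G013002), the list's called member with the highest mean, 3289.9, 5800.0 and 4617 and 17313, 21089 and 18954 (log2 difference 2.10 ± 0.23, adjusted p = 9.6e-07). Replicate 1 was the lowest ear inflorescence sample in all 3, and each remained called without it. Without it 8 expansins were called. Among 9 cellulases and related wall enzymes 6 were called higher and 1 lower. Cel12Chr1 (GRMZM2G178025) rose from 47.8, 72 and 58 to 606, 837 and 604 and xth1 (GRMZM2G119783), a xyloglucan endotransglucosylase, from 6.24, 15.2 and 8.46 to 116, 171 and 111, whereas Cel21 (GRMZM2G009025) fell from 280.0, 572 and 519 to 55.9, 45.3 and 59 (log2 difference -3.02 ± 0.33, adjusted p = 9.5e-07). The number called higher was 3 without ear inflorescence replicate 3 or ear replicate 2 or 3.

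Cellulose synthases and COBRA-like genes were called higher in 17 of 20 cases and lower in none (median 1.73). CesA-1 (GRMZM2G112336) had 3267, 2841 and 2555 in ear inflorescence and 5739, 6822 and 5882 in ear (log2 difference 1.09 ± 0.18, adjusted p = 8.9e-05), a call lost without ear inflorescence replicate 3 or ear replicate 2. Bk2L8 (GRMZM2G353276) rose from 5.54, 18 and 4.83 to 125, 107 and 92.8 (log2 difference 3.59 ± 0.47, adjusted p = 9.2e-06). brittle stalk2 (bk2, GRMZM2G109326), a COBRA-like gene that maize needs for strong secondary walls, had 2 reads over the 3 ear inflorescence libraries and 58.2, 136 and 98.4 normalized counts in ear, a ratio of 161 (95% counting interval 44 to 1340). Its call was lost without any 1 sample other than ear replicate 1. Differences of the same gene in control and event 2 were 1.34 and 1.44, against 6.12 in event 1, and the event 1 difference minus that of control was 4.78 ± 1.40, adjusted p = 0.73, not called. Without ear inflorescence replicate 1 or 2, 1 transcript of the list was called lower.

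Lignin enzymes followed. Of 13 enzymes and laccases 9 were called higher and none lower, with a median of 2.39. PAL1 (GRMZM2G074604), phenylalanine ammonia-lyase at the entry of the pathway, had 3380.0, 7772 and 5774 in ear inflorescence and 28204, 33805 and 29868 in ear (log2 difference 2.52 ± 0.27, adjusted p = 8.7e-07). CCOAOMT2 (GRMZM2G099363), which methylates a lignin precursor, rose from 554, 1086 and 844 to 6376, 8847 and 7586 (log2 difference 3.24 ± 0.28, adjusted p = 6.4e-08). Laccase-13 (GRMZM5G814718), of the oxidases that polymerize lignin, had 0.69, 0 and 1.21 in ear inflorescence, 2 reads in all, and 136, 217 and 205 in ear, a ratio of 306 (95% counting interval 84.2 to 2530). PAL1, CCOAOMT2 and this Laccase-13 identifier were higher in every ear sample than in any ear inflorescence sample, and 4 of the 13 were not called. Other identifiers named Laccase-13 (GRMZM2G132169 and GRMZM2G336337) were under the mean limit. In the flavonoid branch 3 of 8 transcripts were called higher. chi1 (GRMZM2G155329), chalcone isomerase, had 1439, 5158 and 3110.1 and 11112, 13552 and 12854 (log2 difference 2.13 ± 0.34, adjusted p = 7.3e-05), and the glucosyltransferase gene bronze1 (GRMZM2G165390) 58.9, 158 and 84.6 and 275, 368 and 301 (log2 difference 1.74 ± 0.35, adjusted p = 5.5e-04). Both calls were lost without ear inflorescence replicate 1 or 3 or ear replicate 2 or 3, and that for bronze1 also without ear replicate 1. The flavonoid list had 1 call higher without any 1 of ear inflorescence replicates 1 and 3 and ear replicates 2 and 3, and 1 transcript was called lower without ear replicate 1.

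Photosynthesis transcripts were higher in ear almost without exception, 21 of 23 called higher and none lower (median 2.29). The ferredoxin FdI (GRMZM2G122337) had 42.3, 163 and 103 in ear inflorescence and 1248, 1128 and 1363 in ear (log2 difference 3.78 ± 0.35, adjusted p = 1.5e-07), and fdx2 (GRMZM2G048313) 12.5, 36 and 38.7 and 313, 268 and 356 (log2 difference 3.52 ± 0.33, adjusted p = 1.7e-07). fdx3 (GRMZM2G053458), the list's called member with the highest mean, had 5247, 14476 and 11882 and 31332, 29922 and 33355 (log2 difference 1.70 ± 0.28, adjusted p = 1.0e-04), a call lost without ear replicate 3. The Rubisco small subunit rbcS (GRMZM2G098520) rose from 265, 427 and 389 to 2680.3, 2775 and 2497 (log2 difference 2.90 ± 0.25, adjusted p = 7.3e-08). Of 5 C4 cycle transcripts, which leaf cells use to concentrate carbon dioxide, 4 were called higher. pep1 (GRMZM2G083841), the C4 phosphoenolpyruvate carboxylase, rose from 12.5, 6.63 and 8.46 to 159, 230.4 and 267 (log2 difference 4.44 ± 0.37, adjusted p = 5.4e-08), and C4ppdkZm1 (GRMZM2G306345), pyruvate orthophosphate dikinase, from 269, 376 and 347 to 637, 1197 and 1131 (log2 difference 1.54 ± 0.20, adjusted p = 9.8e-06). The NADP-malic enzyme me3 (GRMZM2G085019) was not called, at 1277, 2371 and 1847 and 2451, 2027 and 2343. These genes are leaf markers as well: 4 of the 5 leaf markers were called, their summed level was 1974, 3367 and 2757 in ear inflorescence and 6759.5, 6835 and 7034 in ear, none was at 0, and their part in the result was not tested.

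Of 15 chitinases, pathogenesis-related proteins and proteinase inhibitors 13 were called higher and none lower, with a median difference of 4.06. Of the 16 identifiers matched, 4 had no reads in any ear inflorescence sample. Among these, cc8 was under the mean limit and the others reached it through ear alone. Their direction was set by the choice of members, and they are part of the median. The thaumatin-like gene pr5 (GRMZM2G402631) had 0, 1.90 and 1.21 normalized counts in ear inflorescence, 3 reads in all, and 480.2, 1089 and 901 in ear, a ratio of 902 (95% counting interval 308 to 4380). chiB (GRMZM2G005633), a chitinase, went from 38.1, 527 and 99.1 to 28849, 41224 and 40256 (log2 difference 8.15 ± 1.00, adjusted p = 4.3e-06). Its ear inflorescence values were uneven, with replicate 1 the lowest, and every ear value was far above them. Reads that chiB shares with other chitinase genes may have been counted on more than 1 of them.

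Oxylipin transcripts, for lipoxygenases and the enzymes that turn their products into jasmonate, were called higher in 20 of 36 cases and lower in none (median 1.41). lox1 (GRMZM2G156861) rose from 274, 683 and 593 in ear inflorescence to 36168, 41181 and 31621 in ear, 70.3-fold higher (log2 difference 6.23 ± 0.32, adjusted p = 2.4e-10). lox12 (GRMZM2G106748) had 4.16, 3.79 and 8.46 and 133, 152 and 143 (log2 difference 4.54 ± 0.37, adjusted p = 3.4e-08). Leaving out ear inflorescence replicate 1 left 15 calls. Benzoxazinoids are defence compounds of maize stored as glucosides. Of their 10 genes 7 were called higher and none lower. The beta-glucosidase glu1 (GRMZM2G016890), which releases the active compounds, rose from 2109, 4528 and 2496 to 49073, 40966 and 42182 (log2 difference 3.93 ± 0.41, adjusted p = 5.9e-07), and glu2 (GRMZM2G008247) from 90.8, 216 and 115 to 2223, 1953 and 2019.6 (log2 difference 3.96 ± 0.42, adjusted p = 7.2e-07). Of the P450 enzymes of the pathway, BX3 (GRMZM2G167549) rose from 7670.0, 14327 and 11127 to 40511, 37636 and 39394 (log2 difference 1.87 ± 0.23, adjusted p = 5.0e-06) and bx2 (GRMZM2G085661) from 88, 252 and 185 to 1791, 2003 and 2174 (log2 difference 3.62 ± 0.43, adjusted p = 2.6e-06). The entry enzyme bx1 (GRMZM2G085381) was not called, with 24.9, 317 and 462 in ear inflorescence and 1419, 1013 and 1315 in ear, and replicate 1 was again the lowest. Glutathione S-transferases were called higher in 12 of 24 cases. gst9 (GRMZM2G126763) had 10.4, 27.5 and 35 and 537, 418 and 535 (log2 difference 4.45 ± 0.39, adjusted p = 8.8e-08) and GST3 (GRMZM2G146246) 2333, 6121 and 5082 and 21589.5, 23953 and 22058 (log2 difference 2.43 ± 0.28, adjusted p = 2.1e-06). Without ear replicate 2 the number was 7.

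Water channels and phosphate transporters were mostly higher in ear. Of 27 aquaporins 20 were called higher and none lower, with a median of 1.62. The tonoplast channel TIP4-3 (GRMZM2G146627) had 1.39, 4.74 and 4.83 in ear inflorescence and 973, 1366 and 1308 in ear, 333-fold higher (log2 difference 8.13 ± 0.39, adjusted p = 1.4e-10), and TIP4-4 (GRMZM2G093090) 35.4, 146 and 77.4 and 1882, 3639.7 and 2579 (log2 difference 5.12 ± 0.51, adjusted p = 3.5e-07). The plasma membrane channel PIP1-3 (GRMZM2G392975) rose from 7324, 21309 and 16907 to 62731, 74093 and 62075 (log2 difference 2.26 ± 0.32, adjusted p = 1.9e-05). Fewer were called when single samples were left out, 11 without ear inflorescence replicate 1 and 12 without ear replicate 2. Of 11 phosphate transporter identifiers 5 reached the mean limit, pht10 through its ear samples. All 5 were higher in every ear sample, and 4 were called. Under the limit, pht11 (GRMZM2G139639) was lower on average in ear, at 2.77, 7.58 and 9.67 and 1.19, 6.29 and 2.81. The others under the limit were higher on average in ear. pht7 (GRMZM2G112377) had 72.8, 327 and 65.3 and 5437, 4389 and 2998 (log2 difference 5.15 ± 0.58, adjusted p = 1.5e-06), pht1 (GRMZM2G326707) 10.4, 36 and 24.2 and 399, 592 and 385 (log2 difference 4.36 ± 0.34, adjusted p = 2.2e-08), and pht10 (GRMZM2G075870) was the one not called, at 3.47, 2.84 and 1.21 and 19, 27.7 and 7.03. Of 7 annexins, calcium-binding membrane proteins, 5 were called higher, with Ann9 (GRMZM2G132461) at 24.9, 62.5 and 49.6 and 1069.7, 876 and 722 (log2 difference 4.33 ± 0.33, adjusted p = 1.5e-08) and Ann6 (GRMZM2G061950) at 1223, 3854 and 2586 and 15716, 15754 and 16129 (log2 difference 2.78 ± 0.28, adjusted p = 3.8e-07).

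Of 10 genes of sucrose transport and cleavage 5 were called higher in ear and none lower. The phloem transporter sut1 (GRMZM2G034302) rose from 198, 336 and 409.8 in ear inflorescence to 8937, 8023 and 6919 in ear, 25.3-fold higher (log2 difference 4.71 ± 0.24, adjusted p = 2.2e-10). INCW2 (GRMZM2G119689), a cell-wall invertase that splits sucrose outside the cell, rose from 33.3, 28.4 and 32.6 to 809, 1297 and 991 (log2 difference 4.97 ± 0.31, adjusted p = 2.2e-09), and the vacuolar invertase ivr2 (GRMZM2G089836) from 993, 1326 and 736 to 8970.3, 11753 and 6589 (log2 difference 3.16 ± 0.29, adjusted p = 1.2e-07). In all 3 the ear values were several-fold above every ear inflorescence value. The sucrose synthases sh1 (GRMZM2G089713) and sus1 (GRMZM2G152908) were not called, at 29674, 58403 and 48490.1 and 85473, 92561 and 81224 for sh1 and 55076, 103696 and 90014 and 117424, 134023 and 102512 for sus1. sus2 (GRMZM2G318780), the third sucrose synthase measured, was called higher (log2 difference 1.59 ± 0.14, adjusted p = 1.3e-07). None of 14 starch synthesis transcripts was called, and the best covered, GBSSIIa (GRMZM2G008263), had 12629, 18975 and 16707 and 12049.9, 10461 and 13068 (log2 difference -0.43 ± 0.20, adjusted p = 0.1). When ear inflorescence replicate 2 was left out, 2 starch transcripts were called lower.

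Ribosomal protein transcripts had a median difference of 0.69, and 2 of 35 were called, both higher. rpl19 (GRMZM2G171444) had 264, 333 and 303 in ear inflorescence and 994, 864 and 923 in ear (log2 difference 1.63 ± 0.15, adjusted p = 1.1e-07), and arpp2b (GRMZM2G114954), an acidic protein of the ribosome stalk, 2666, 2957 and 2654 and 6221, 5905 and 5693 (log2 difference 1.11 ± 0.21, adjusted p = 3.6e-04). The arpp2b call was lost on leaving out any 1 of the 6 samples, and the list had 1 call without ear inflorescence replicate 1 or 3 or any 1 ear replicate. Replicate 1 lay a median of 1.25 below the other ear inflorescence samples over this list, and without it the median difference was 0.25. The list medians were 0.58 in control and 0.05 in event 2.

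Heat-shock proteins and factors were called higher in 8 of 24 cases and lower in none. Without ear inflorescence replicate 1, 6 were called higher and 1 lower, and without replicate 2, 2 were called lower. hsp 17.2 (GRMZM2G158232), a small heat-shock protein, had 9.70, 35.1 and 32.6 in ear inflorescence and 285, 293 and 363 in ear (log2 difference 3.73 ± 0.35, adjusted p = 1.6e-07), and the factor Hsf05 (GRMZM2G133023) 17.3, 55.9 and 43.5 and 379, 278 and 351 (log2 difference 3.22 ± 0.36, adjusted p = 1.4e-06). Hsp70 (GRMZM2G310431) rose from 5820.2, 8326 and 7034 to 18265, 16072 and 17911 (log2 difference 1.32 ± 0.18, adjusted p = 1.7e-05). The list median was 0.63 in event 1, -0.27 in control and 0.29 in event 2. The number called was 5 without ear inflorescence replicate 3 or ear replicate 3 and 4 without ear replicate 1.

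Flowering-time genes were called in both directions. Of the 9 clock and flowering transcripts 4 were higher and 1 lower. id1 (GRMZM2G011357), the zinc finger gene indeterminate1, had 8.32, 14.2 and 3.63 in ear inflorescence and 47.5, 74.3 and 85.7 in ear (log2 difference 2.97 ± 0.41, adjusted p = 1.4e-05). ZCN14 (GRMZM2G373928), of the phosphatidylethanolamine-binding family that includes florigen, rose from 295, 542 and 403 to 1866, 1897 and 1810.2 (log2 difference 2.21 ± 0.19, adjusted p = 8.0e-08). ZCN16 (GRMZM2G127121) of the same family had 8.32, 4.74 and 7.25 and 78.5, 32.7 and 28.1 (log2 difference 2.49 ± 0.45, adjusted p = 2.2e-04), a call lost without any 1 ear inflorescence replicate or ear replicate 1. The CONSTANS-like conz1 (GRMZM2G405368) was the one lower, at 3297, 1387 and 1693 and 426, 534 and 645 (log2 difference -1.91 ± 0.36, adjusted p = 3.2e-04), and that call was lost on leaving out any 1 of the 6 samples. The number called lower was 0 without ear inflorescence replicate 1 or 3 or any 1 ear replicate and 3 without ear inflorescence replicate 2. The GIGANTEA genes gigz1a (GRMZM2G107101) and gigz1b (GRMZM5G844173) had differences of -1.09 and -0.78 and were not called. Among the 3 sex determination genes measured none was called. Grassy tillers1 (gt1, GRMZM2G005624) had 293, 485 and 487 and 475, 429 and 403.

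The labelled tissues were checked against markers. Of 10 ear inflorescence meristem markers 9 were members, and ra1 (GRMZM2G003927) fell under the mean limit with 3.47, 8.53 and 3.63 normalized counts in ear inflorescence and 0 in all 3 ear samples. All 9 had ear differences below 0, with 2 called, BA1 and ub2. ramosa3 (ra3, GRMZM2G014729), a trehalose phosphate phosphatase that limits branching, had 20.8, 48.3 and 43.5 in ear inflorescence and 19, 12.6 and 8.43 in ear and was not called (log2 difference -1.41 ± 0.49, adjusted p = 0.028). Summed over the 10 the level was 10416, 19441 and 19091 in ear inflorescence and 9339, 9148 and 9707 in ear. Of 6 pistil and floral organ markers 4 were members, and zag2 alone of these was called higher. Without ear inflorescence replicate 3 or any 1 ear replicate none was. Of the 4, 3 had differences above 0. The other had -0.79, with every ear value below every ear inflorescence value. Both zmm2 identifiers were under the mean limit. GRMZM2G316366 had 15.25, 8.53 and 8.46 in ear inflorescence and 2.38, 3.78 and 1.41 in ear. GRMZM2G492156 had 6.24, 2.84 and 1.21 and 3.57, 3.78 and 2.81. The carpel gene ZAG1 (GRMZM2G052890) had 672, 667 and 595 and 938, 875 and 895 (log2 difference 0.49 ± 0.15, adjusted p = 0.017).

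Markers of tissues that an ear sample could also hold were checked in the same way. The 5 pollen markers, among them EXPB10 (GRMZM2G127106) and the polygalacturonase PG14 (GRMZM2G418644), had no reads in any ear inflorescence sample and summed to 307, 113 and 112 in the ear replicates, with ear replicate 1 the highest. They reached the mean limit through ear alone. None was called, although their median difference was 5.09. The spread was estimated over all 18 samples. EXPB10 had a difference of 5.40 ± 1.35 and 0, 268 and 0 normalized counts in event 2 ear inflorescence. The lack of calls is therefore no measure of how little pollen RNA the ear samples held. EXPB1, EXPB9 and EXPB10 are close paralogs that may share reads. The 10 kernel storage markers included 3 members, and 2 of these were called higher: the gamma zein gz27 (GRMZM2G138727), at 9.01, 18 and 29 in ear inflorescence and 215, 319.8 and 142 in ear (log2 difference 3.59 ± 0.35, adjusted p = 3.0e-07), and the legumin leg1 (GRMZM2G174883), with no reads in ear inflorescence and 30.9, 34 and 26.7 in ear, at least 8.42-fold higher. The 10 kernel markers, of which 3 were at 0 in every ear inflorescence sample and 2 in every ear sample, together summed to 60.3, 139 and 123 in ear inflorescence and 414, 468 and 364 in ear. They did not all go the same way. Under the mean limit, glb1 (GRMZM2G067919) had 13.2, 5.69 and 8.46 in ear inflorescence and 7.13, 5.04 and 2.81 in ear. The markers glb2 and ole1 were also lower on average in ear, whereas zp15 and glb3 were higher. The part of leaf, pollen or kernel RNA in the transcripts that were higher in ear was not tested.

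Ear inflorescence replicate 1 departed from its group in a graded way. It lay more than 1 log2 unit below the mean of replicates 2 and 3 in 5599 of the 39942 transcripts and more than 1 above in 4243, with a median departure of 0.06. The median departure was -0.62 over transcripts called higher in ear, 0.79 over those called lower and 0.10 over those not called, and it was -0.56 over the 6432 with a mean of at least 1000. Across the 39942 members, which share these libraries and are not independent replicates, its departure correlated with the difference between ear and ear inflorescence at r = -0.659 in control and -0.492 in event 2, given as a description of 1 library with no test. The departure by list ran from -1.39 for histones and -1.38 for glutathione S-transferases to 0.79 for DNA methylation, small RNA and Polycomb transcripts.

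Leaving out replicate 1 changed the number of calls in 24 of the 40 lists, mostly by a few transcripts. Of the transcripts called higher in ear with it, the calls without it numbered 8 in place of 12 for glutathione S-transferases, 6 in place of 8 for floral MADS genes and 4 in place of 6 for cellulases. Cellulose synthases and COBRA-like genes went from 17 to 15, lignin enzymes from 9 to 8, photosynthesis from 21 to 20, chitinases and pathogenesis-related proteins from 13 to 12, benzoxazinoid genes from 7 to 6, phosphate transporters from 4 to 3 and clock and flowering genes from 4 to 3. Among those called lower, HD-Zip genes went from 4 to 3, cytokinin genes from 7 to 6 and mitotic transcripts from 19 to 18, whereas ramosa, spikelet and SBP-box genes went from 6 to 7 and meristem markers from 2 to 3. The other changed lists are given with their members, and in 16 lists, among them growth-regulating factors, DNA replication, YABBY, annexins and sucrose genes, the counts were the same.

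**Figure D4:**
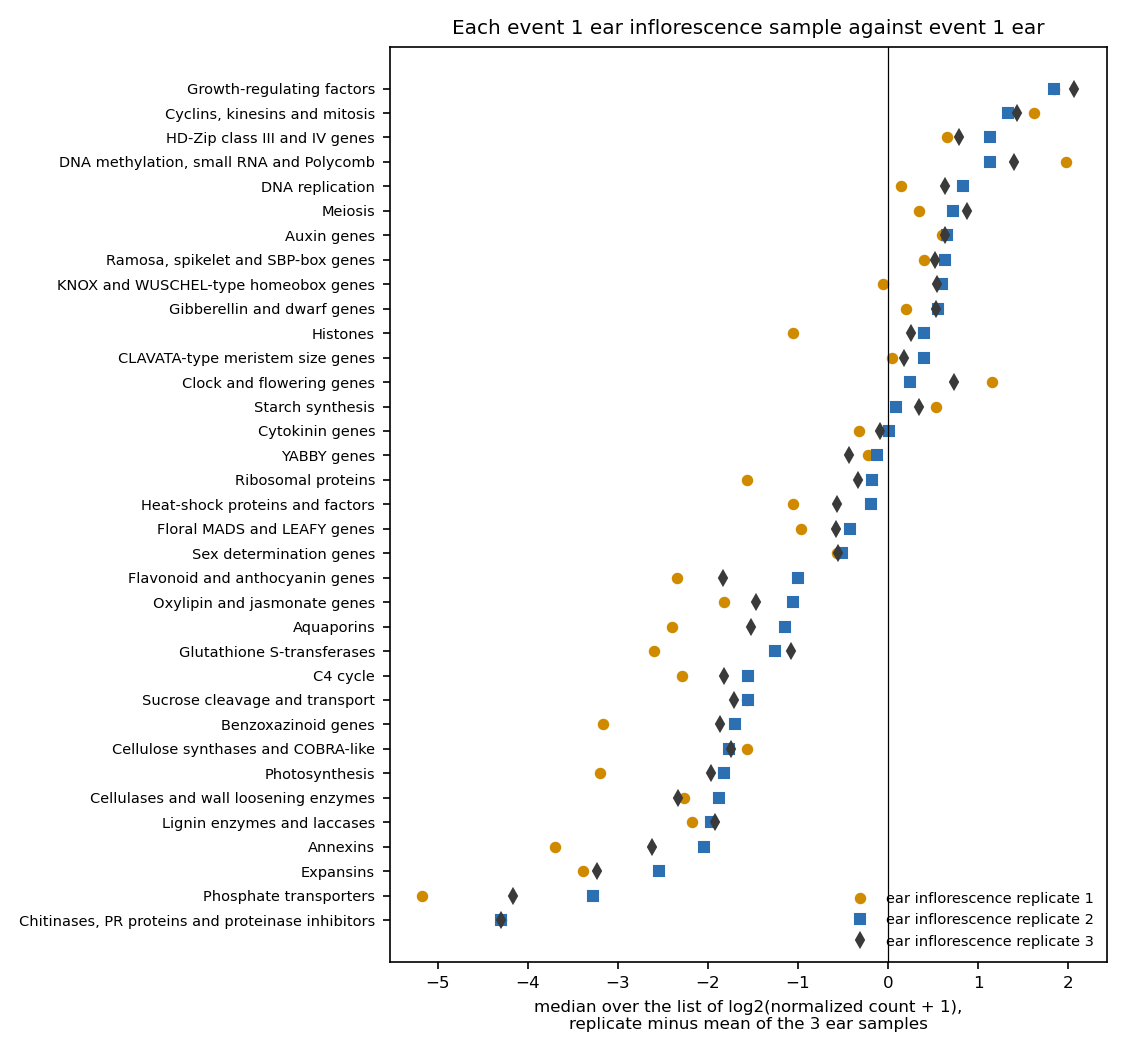
Median over each functional list (rows) of the log2(normalized count + 1) of a single event 1 ear inflorescence sample minus the mean of the 3 ear samples (horizontal axis), with a symbol for each replicate. Replicate 1 lies to the left of replicates 2 and 3 for histones, ribosomal proteins and aquaporins and to their right for DNA methylation transcripts.

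The transcripts in which replicate 1 stood farthest off were chosen for that departure among members with a mean of at least 100. GRMZM2G104616 had 0.69, 86.2 and 24.2 normalized counts in ear inflorescence and 3971, 4406 and 6169.8 in ear, and GRMZM2G114945 had 0, 27.5 and 12.1 and 969, 1103 and 641. In both replicate 1 was the lowest of all 6 samples, and both were called higher in ear. MADS34, above, was the third. On the other side, GRMZM2G330229 had 909, 227 and 299 in ear inflorescence and 63, 37.8 and 75.9 in ear, GRMZM2G415238 443, 117 and 168 and 48.7, 56.6 and 50.6, and GRMZM2G031177 9.01, 0 and 2.42 and 183, 228 and 208. The call for GRMZM2G330229 was lost on leaving out any 1 of the 6 samples, and that for GRMZM2G415238 on leaving out ear inflorescence replicate 1 or 3 or any 1 ear replicate. The called higher transcript with the highest mean, GRMZM2G166944, showed the same order, with 22752, 54760.1 and 38737 in ear inflorescence and 225381, 268881 and 239814 in ear (log2 difference 2.74 ± 0.38, adjusted p = 1.7e-05).

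The same comparison of tissues was made in control and event 2 plants, with samples of their own. Of the 10706 transcripts called in event 1, 10697 had the same sign of difference in control and 10705 in event 2, and of all 39942 members 92.2% and 89.7% had. The median difference of those called higher was 1.795 in event 1, 1.58 in control and 1.36 in event 2, and of those called lower it was -1.68, -1.60 and -1.19. Since event 1 chose these transcripts, its medians are set beside the others as a description. Whether a transcript's difference itself differed between genotypes was tested by the interaction.

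Against control, 8 of the 39942 members (0.02%) had a tissue difference that was called different in event 1, all 8 with the larger value in event 1; over all 76612 identifiers 15 were called (0.0196%), 12 of them higher (0.0157%). In limma 1 member, hsp22, had an adjusted p under 0.05. A raw p under 0.05 was found in 1463 members and 3272 of all identifiers. Both are smaller shares than the 0.05 that uniform p-values would give. With single samples left out the number called ranged from 2 to 37, the latter without event 1 ear inflorescence replicate 1 (17 higher and 20 lower). It was 2 without control ear inflorescence replicate 1, control ear replicate 2 or 3 or event 1 ear inflorescence replicate 3, 3 without control ear inflorescence replicate 3 or event 1 ear replicate 2, 4 without control ear inflorescence replicate 2 and 5 without event 1 ear replicate 3. On recovered reads edgeR called 125 members (101 higher) and DESeq2 30 (29 higher). At an adjusted p under 0.05 over all identifiers the numbers were 128 with edgeR and 13 with DESeq2.

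The small heat-shock protein hsp22 (GRMZM2G007729) had differences of opposite sign in event 1 and control. In event 1 it had 2856, 4171 and 3336 normalized counts in ear inflorescence and 7723, 6523 and 7075 in ear, and in control 12058, 7734 and 9601 and 5066, 3761 and 3997. In event 2 it had 4253, 3280 and 3166 in ear inflorescence and 4155, 5606 and 4776 in ear, a difference not called different from that of event 1. The tissue difference was 1.05 in event 1, -1.18 in control and 0.44 in event 2, and event 1 differed from control by 2.24 ± 0.28, adjusted p = 0.017. Leaving out any 1 sample did not end the interaction call. The difference within event 1 was itself called (adjusted p = 3.8e-04), and that call was lost without ear inflorescence replicate 1 or 3 or any 1 ear replicate.

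GRMZM2G109071 had 9.70, 7.58 and 2.42 in event 1 ear inflorescence and 1348, 2198 and 1453 in event 1 ear, against 9.81, 15.8 and 17.5 and 209.7, 71.3 and 65.5 in control (event 1 minus control 5.16 ± 0.84, adjusted p = 0.15). GRMZM2G059129 had 49.9, 58.8 and 43.5 and 309, 335 and 271 in event 1 and 96.7, 63.8 and 57.2 and 128, 141 and 141 in control (event 1 minus control 1.63 ± 0.27, adjusted p = 0.15). Both were higher in ear in both genotypes, by more in event 1. For GRMZM2G109071 the difference was 7.90 in event 1, 4.41 in event 2 and 2.75 in control. For GRMZM2G059129 it was 2.57, 2.02 and 0.94 in the same order. GRMZM2G097135 had 88.7, 101 and 90.7 and 82, 47.8 and 21.1 in event 1 and 1079.6, 538 and 401 and 41, 19.8 and 19 in control (event 1 minus control 3.49 ± 0.57, adjusted p = 0.15), and GRMZM5G835276 4.85, 12.3 and 8.46 and 170.0, 347 and 218 in event 1 and 9.81, 17.9 and 18.3 and 57.4, 48.8 and 37 in control (event 1 minus control 3.10 ± 0.58, adjusted p = 0.35). The difference of GRMZM2G097135 was -1.08 in event 1, -1.87 in event 2 and -4.57 in control, and that of GRMZM5G835276 was 4.70, 2.65 and 1.60. None of these transcripts was called different between event 1 and event 2. The calls for GRMZM2G109071, GRMZM2G097135 and GRMZM5G835276 were lost on leaving out any 1 of 8, 6 and 10 of the 12 samples compared, and that for GRMZM2G059129 on leaving out none. The aquaporin TIP4-3 was also among the 8, with a difference of 8.13 in event 1 and 5.23 in control (event 1 minus control 2.90 ± 0.56, adjusted p = 0.36). Its interaction call held under 4 of 20 alternatives and was lost without event 1 ear inflorescence replicate 1.

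Against event 2, 2 members (0.00501%) were called, both with the larger value in event 1, and 14 of all identifiers (0.0183%), 7 of them higher (0.00914%). In limma none had an adjusted p under 0.05. A raw p under 0.05 was found in 2394 members, a larger share than 0.05. edgeR called 232 members and DESeq2 11. At an adjusted p under 0.05 over all identifiers the numbers were 507 with edgeR and 5 with DESeq2. GRMZM2G122172 had 6.24, 6.63 and 4.83 in event 1 ear inflorescence and 47.5, 56.6 and 74.5 in ear, and 11.9, 4.63 and 13 and 4.76, 5.59 and 8.80 in event 2 (event 1 minus event 2 3.60 ± 0.55, adjusted p = 0.25). LIM7 (GRMZM2G134752) had 6.93, 7.58 and 12.1 and 9.51, 20.1 and 12.7 in event 1 and 15.6, 30.1 and 23.6 and 1.19, 0 and 0 in event 2 (event 1 minus event 2 4.76 ± 0.93, adjusted p = 0.52). The LIM7 call was lost on leaving out any 1 of 11 of the 12 samples, and that for GRMZM2G122172 on leaving out none. Without single samples the number of calls was 14 (event 2 ear replicate 1), 8 (event 1 ear inflorescence replicate 2), 2 (event 1 ear inflorescence replicate 1 or ear replicate 1) or 1 (each of the others).

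**Figure D5:**
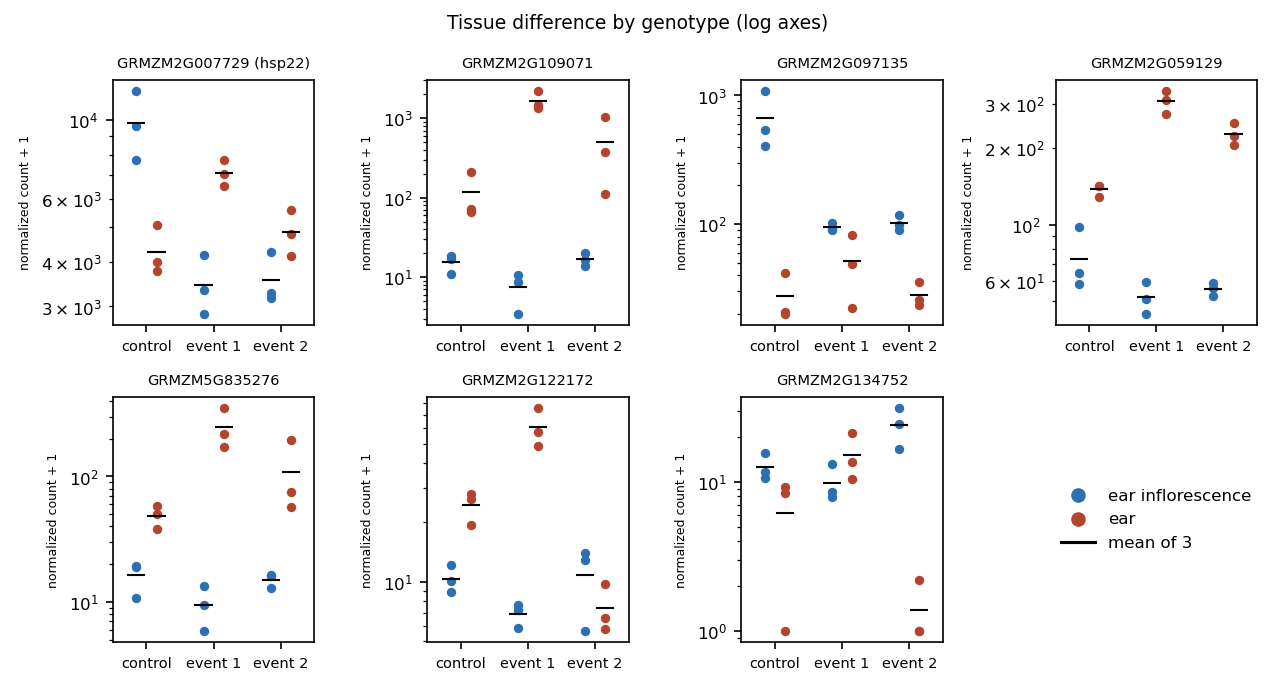
Normalized count + 1 (vertical log axes) in each sample of control, event 1 and event 2 for 7 transcripts with an interaction call, those with the smallest p (5 against control and 2 against event 2), with ear inflorescence in blue, ear in red and a bar at the mean of 3. The ear samples of hsp22 lie below the ear inflorescence samples in control and above them in event 1.

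Transcripts that the study listed for their response to the transgene were followed by identifier, a list chosen by the study on these samples. Some with an interaction call above were on that list. The study named hsp22 and GRMZM2G097135 for ear inflorescence and GRMZM2G059129 for ear, so their interaction calls are not independent of that choice. GRMZM5G841343 had 636, 1019 and 884 in event 1 ear inflorescence and 426, 279 and 299 in ear and was called lower (log2 difference -1.33 ± 0.21, adjusted p = 7.2e-05), a call lost without ear inflorescence replicate 2 or 3 or ear replicate 2 or 3. GRMZM5G845499 had 182, 171 and 172 and 83.2, 74.3 and 131, and ERTC (GRMZM2G051135) 24.3, 33.2 and 47.1 and 17.8, 17.6 and 15.5, and neither was called. GRMZM2G008611 had 981, 925 and 892 and 887, 993 and 995 (log2 difference 0.04 ± 0.13, adjusted p = 0.9), and GRMZM2G168222 712, 607 and 638 and 756, 854 and 798 (log2 difference 0.30 ± 0.16, adjusted p = 0.15). The tissues overlapped in the first of these, and the second was not called either. GRMZM5G823696 was under the mean limit.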

How the data were processed

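Libraries of 50-base reads came from 3 biological replicates in each of 6 groups, 18 samples in all. The authors processed the reads with CASAVA 1.8.2 and aligned them with Bowtie 0.12.8 to the B73 public transcriptome, allowing 2 mismatches in a seed of 28 bases. A read on more than 10 transcripts was ignored and any other was counted on each transcript it matched, so members of a gene family can share reads, and whether strand was used is not given in the sources used here. The deposited values are a normalized signal, read counts multiplied by 1 DESeq scale factor per sample, here called normalized counts. Dividing by the smallest step of each sample gave whole reads for 559741 of 559741 values below 50 (tolerance 0.0051). Over all values above 0 it did so for 1010442 of 1035237. The rest were rounded to the nearest read. These reads served for depth, floors, edgeR and DESeq2.

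The values were fitted as log2(value + 1) with limma 3.58.1 in R 4.3.3, with trended, moderated variances and 1 mean per group over all samples and identifiers, by a script tested on simulated data. Calls were made at the authors' threshold, a raw p of at most 0.0001, and p was adjusted by the Benjamini-Hochberg method across the whole table. An exact permutation test of 3 against 3 cannot go below 0.1. Symbols came from RefSeq (names only), which matched 18629 of 76612 identifiers, and 40 lists were matched by symbol. Of the members, 675 had the same reads in all samples as another identifier.

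Members and lists were chosen with earlier results of these data known. Named were, in each direction, the 5 smallest p overall and among transcripts with a symbol, the 2 largest called changes and the highest called mean of a list, members of lists of at most 12, the highest members at the floor of the other tissue, the largest departures of ear inflorescence replicate 1, the interaction calls with the smallest p and transcripts listed by the study. Alternatives were a pseudocount of 0.1, a fit to members or to the compared groups only, a replicate block, quantile normalization, no moderation, edgeR 4.0.16, DESeq2 1.42.0, a mean of at least 100, and leaving out each sample.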

Additional observations from a re-analysis of the deposited data

Results flagged for a closer look

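By the interaction test in limma the difference between ear and ear inflorescence in event 1 was called different from control in 8 members and from event 2 in 2. The 5 with the smallest p against control were hsp22 (GRMZM2G007729; 2.24 ± 0.28, adjusted p = 0.017), GRMZM2G109071 (5.16 ± 0.84, adjusted p = 0.15), GRMZM2G097135 (3.49 ± 0.57, adjusted p = 0.15), GRMZM2G059129 (1.63 ± 0.27, adjusted p = 0.15) and GRMZM5G835276 (3.10 ± 0.58, adjusted p = 0.35). Those against event 2 were GRMZM2G122172 (3.60 ± 0.55, adjusted p = 0.25) and LIM7 (GRMZM2G134752; 4.76 ± 0.93, adjusted p = 0.52). Each value is the event 1 difference minus that of the other genotype on the log2 scale, ± SE. The study had already listed hsp22, GRMZM2G097135 and GRMZM2G059129 on these samples as changed in both events. In limma only hsp22 passed the adjustment over all identifiers at 0.05. With edgeR and DESeq2, 128 and 13 identifiers passed it against control, and 507 and 5 against event 2. The hsp22 event 1 ear values were all above its event 1 ear inflorescence values. Its control ear values were all below those of control ear inflorescence.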

How the results depend on the processing

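The 10706 calls between tissues became 1064 (839 higher and 225 lower) when limma was fitted to the 6 event 1 samples alone, where fewer samples estimate the spread, and ranged from 6690 to 11069 when single samples were left out. The other alternatives gave 7348 to 15447. Among these, the share of calls higher in ear was 51.7% with quantile normalization, 52.5% with DESeq2 and 52.8% with edgeR. It was 56.5% to 64.3% with the rest of them. The 8 calls against control became 30 with DESeq2, 125 with edgeR, 5 with quantile normalization (4 higher and 1 lower) and 5 with the replicate block, and ranged from 2 to 37 when single samples were left out. The 2 calls against event 2 became 11 with DESeq2, 232 with edgeR (146 higher), 4 without moderation, 5 with a pseudocount of 0.1, 1 with quantile normalization, 1 with the replicate block and 0 at a mean of at least 100, and ranged from 1 to 14 when single samples were left out. The cause of these changes was not tested. With the replicate block 9775 transcripts were called between tissues. Correlations of the deviations of same-numbered samples were 0.115, 0.024 and 0.057, so that the numbers were not taken as pairs, and not every sample correlated best with its own number. No named transcript that was called reversed its sign under any alternative. Of those not called, his1a (-0.72 to 0.65), fea3 (-0.64 to 0.01) and GRMZM2G008611 (-0.14 to 0.10) changed sign between alternatives. Of the 124 named transcripts called between tissues, 85 lost the call in the fit to 6 samples, 15 without moderation, 14 with quantile normalization, 4 with the block and 11 to 17 when a sample was left out. At low counts the floor of 3 reads per library limits every fold.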
